A study of Mus musculus with 8 samples.

Results

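The 10 genes described here are those of antigen presentation by major histocompatibility complex (MHC) class I: the heavy chains H2-K1, H2-D1, H2-Q4, H2-Q7 and H2-T23, the light chain B2m, the peptide transporter subunits Tap1 and Tap2, the loading factor Tapbp, and the immunoproteasome subunit Psmb8. They are a named list of 10 of the 38031 genes of the count table, and they were chosen by their level in Fezf2 shRNA-treated against non-silencing shRNA-treated tissue, with earlier results of these data known. They were fitted with all other genes, but their difference between the treatments is given as a description, with no p value. RNA-sequencing was performed on primary motor cortex (M1) of male Swiss Webster mice. Mice were injected at postnatal day 21 to 25 with a lentivirus expressing mCherry and either a Fezf2 shRNA (4 libraries) or a non-silencing shRNA (4 libraries), and M1 was dissected at postnatal day 49 to 53 by mCherry. Both viruses carried the Synapsin I promoter, which is active in neurons, while the dissected tissue held all layers with the meninges and every cell type in them. Swiss Webster is an outbred stock, the class I genes are highly polymorphic in mice, and the alleles these animals carried are not given in the sources used here. The study used 4 mice of each treatment, and each library was taken as 1 mouse.

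Class I molecules display peptides from inside the cell to CD8 T cells and natural killer cells. The proteasome cuts proteins, TAP1 and TAP2 move the peptides into the endoplasmic reticulum, tapasin (Tapbp) holds the empty molecule at the transporter, and the heavy chain reaches the cell surface with beta-2 microglobulin (B2m). H2-K1 and H2-D1 encode the classical heavy chains K and D, whereas H2-Q4, H2-Q7 and H2-T23 encode the nonclassical Qb-1, Qa-2 and Qa-1 chains. In the brain, class I genes are known from microglia, endothelial cells and neurons, and interferons raise most genes of the pathway.

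Of the 10 genes, 9 lie on chromosome 17 and B2m lies on chromosome 2, and the promoters of some of them are shown first. RefSeq promoter windows (GRCm38.p6) were found for 9 of the 10 genes, and Tap2 had no entry. The 250 bases before the start are printed for 3 heavy chains and for B2m, 5′ to 3′ on the strand of the gene. H2-Q7 and B2m followed H2-K1 over the libraries, and H2-Q4 had a low correlation with it. Psmb8 and Tap1 also followed H2-K1, and their windows are not printed. Capitals mark matches, on either strand, to 5 motifs: GGGATTNCC, the kappa B motif of enhancer A; GAANNGAAA and AAANNGAAA, variants of the interferon response element that differ in their first letters; CCAAT, the Y box; and TGACG, the core of site alpha.

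H2-K1, chr17:34000348-34000597, minus strand: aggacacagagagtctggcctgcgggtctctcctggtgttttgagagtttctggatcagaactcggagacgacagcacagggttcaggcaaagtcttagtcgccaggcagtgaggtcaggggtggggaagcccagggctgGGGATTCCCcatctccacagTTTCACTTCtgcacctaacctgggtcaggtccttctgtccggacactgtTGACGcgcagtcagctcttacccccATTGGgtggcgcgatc

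H2-Q7, chr17:35438905-35439154, plus strand: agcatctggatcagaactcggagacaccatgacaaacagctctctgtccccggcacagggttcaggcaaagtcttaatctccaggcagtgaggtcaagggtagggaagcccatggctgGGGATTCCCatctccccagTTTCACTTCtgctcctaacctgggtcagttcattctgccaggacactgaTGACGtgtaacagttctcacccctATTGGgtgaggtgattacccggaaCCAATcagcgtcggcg

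H2-Q4, chr17:35379367-35379616, plus strand: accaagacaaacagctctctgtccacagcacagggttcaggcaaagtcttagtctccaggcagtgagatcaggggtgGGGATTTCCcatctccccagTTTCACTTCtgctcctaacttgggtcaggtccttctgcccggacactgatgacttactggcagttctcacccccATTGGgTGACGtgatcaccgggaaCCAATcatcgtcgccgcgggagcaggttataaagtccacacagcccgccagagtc

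B2m, chr2:122147437-122147686, plus strand: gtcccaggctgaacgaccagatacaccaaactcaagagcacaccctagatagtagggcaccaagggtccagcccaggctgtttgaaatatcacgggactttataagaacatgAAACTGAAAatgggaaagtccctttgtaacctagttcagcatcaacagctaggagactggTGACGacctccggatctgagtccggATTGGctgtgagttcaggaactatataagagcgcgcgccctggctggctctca

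The windows of H2-K1, H2-Q7 and H2-Q4 each held 1 kappa B match, then 1 GAANNGAAA match and then 1 TGACG core along the strand of the gene. The TGACG letters came before the first Y box match in H2-K1 and H2-Q7. In H2-Q4 they came after it, so they lie at another place there. The kappa B letters were GGGATTCCC in H2-K1 and H2-Q7 and GGGATTTCC in H2-Q4. H2-D1 held the same 3 motifs with GGGATTCCC, and its window is not printed. B2m had neither the kappa B nor the GAANNGAAA letters, but held 1 AAANNGAAA match, 1 Y box and 1 TGACG core. In all, 4 of the 9 genes held the kappa B letters, which 0.822% of all 32851 windows of that length held, and the same 4 held GAANNGAAA, against 6.31%. The AAANNGAAA letters were in 2 genes (H2-T23 and B2m, against 9.37% of windows), CCAAT in 8 (33.9%) and TGACG in 6 (17.8%). The motifs were chosen after their values were seen. The 4 genes with the kappa B letters are related heavy chains. The shares beside those of all windows are therefore a description and not a test. These matches are letters in a window and were not tested as binding sites.

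The 5 heavy chains are close relatives, and this limits what a read count can say about each. Their coding sequences (longest annotated transcript) were 81.8% to 92.0% identical over aligned bases, H2-K1 with H2-D1 being the closest pair and H2-D1 with H2-T23 the most distant. Of the 50-base words of the spliced H2-Q7 transcript, 40.2% also occurred in a transcript of another gene, most often H2-Q5 (20.1%) and H2-Q6 (19.6%). The share was 39.2% for H2-Q4, of which 16.1% was with Gm11131, an antisense transcript over its start, and 7.68% with H2-Q6. It was 29.8% for H2-T23, 14.3% for H2-D1 and 8.79% for H2-K1, and no 50-base word of B2m was shared. How reads that match several genes were counted is not given in the sources used here, so the counts of H2-Q7, H2-Q4 and H2-T23 are the least certain as to the gene they come from. Counts were also taken over whole genomic intervals, introns included, and the sources do not say that strand was used. The counted interval of H2-T23 lies inside the antisense gene A930015D03Rik, B2m lies inside Patl2, and Tap2 and Psmb8 share bases with the antisense gene Gm20496. Reads in the bases that such a pair shares cannot be assigned to 1 gene from the counts alone. For Patl2 and B2m, however, the counts were nearly equal, at 1478 to 5734 and 1428 to 5654 in a library. Few reads of the Patl2 interval thus lay outside B2m. The genes are on opposite strands, so strand was not used in these counts.

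The libraries were of even depth, with 54684016 to 58003814 counts on genes in each. For the class I genes, Fezf2 shRNA replicates 3 and 4 stood apart from the other 6 libraries, and the group differences are given with and without them. Fezf2 itself had 688, 767, 735 and 702 normalized counts in the non-silencing libraries and 621, 583, 568 and 593 in the Fezf2 shRNA libraries, so that every treated library lay under every control. Its log2 fold change was -0.29 ± 0.08 (standard error), with an adjusted p of 0.0824 in the edgeR quasi-likelihood test and of 0.0256 in DESeq2. Of 9959 genes with over 8 CPM (counts scaled to a library size of 1000000) in 4 or more libraries, 195 were higher (1.96%) and 13 lower (0.131%) in Fezf2 shRNA-treated tissue, that is 208 in all (2.09%), at an adjusted p of at most 0.05 and a log2 change of at least 0.2. DESeq2 called 752 (7.55%). In the tissue, all 11 neuronal markers were tested, with summed normalized counts of 255933 to 280733 in controls and 266888 to 279871 in treated libraries. Of the 17 lymphocyte markers, 14 stayed under 1 CPM in every library.

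Per kb of exon, B2m was by far the most abundant of the genes, at 64.4 ± 13.7 CPM per exonic kb in the non-silencing libraries (mean ± SD, n = 4). H2-Q4 (10.05 ± 0.730) and H2-T23 (9.31 ± 0.313) came next, with overlapping spreads, and then H2-K1 (5.57 ± 1.97), Tapbp (4.81 ± 0.718) and H2-D1 over its widest interval (3.80 ± 0.370), whose neighbours overlapped in turn. Tap2 (0.986 ± 0.147), Psmb8 (0.930 ± 0.342), H2-Q7 (0.845 ± 0.347) and Tap1 (0.810 ± 0.224) were the least abundant, and their spreads overlapped. Intronic reads are part of these levels.

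By the filter of more than 8 CPM, 5 of the 10 genes entered the fit (H2-Q4, H2-K1, H2-T23, B2m and Tapbp). Another 4 had over 1 CPM in 4 or more of the libraries (H2-Q7, Tap1, Tap2 and Psmb8). H2-D1 passed neither, since the transcript with the lowest Ensembl number covers 869 bases of its 3′ part, and it is given over its widest interval of 4770 bases as well. Of these 5, 1 (H2-Q4) was past the threshold, higher, and 0 were lower, beside 2.09% of all genes tested. With the filter at 1 CPM, that background was 0.510% of 16481 genes. The treatment contrast chose these genes, so nothing is read from that count or from the call of H2-Q4. Fold changes below are log2, Fezf2 shRNA over non-silencing shRNA, with the standard error of the fit.

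H2-Q4, the Qb-1 heavy chain, was the gene with separate treatments. Its normalized counts were 1007, 1078, 914 and 1060 in the non-silencing libraries and 1318, 1419, 1268 and 1437 in the Fezf2 shRNA libraries. All treated libraries lay above all controls, a pattern that 7.41% of genes tested showed in this direction. The mean was 1015 ± 73.7 in controls and 1361 ± 81.0 in treated tissue (SD, n = 4), and the log2 fold change 0.42 ± 0.08. The antisense gene over its start, Gm11131, had 0 to 70 counts in a library, against 929 to 1412 for H2-Q4, so that overlap is a small part of the count. H2-Q4 is short, and the median log2 fold change was -0.03 over all genes tested and -0.12 over the 2153 tested genes of under 10 kb. With an offset for gene length the log2 fold change of H2-Q4 was 0.53 ± 0.08, and it was not among the 2 genes then past the threshold. It was also not past it without non-silencing replicate 1 or 4 or without Fezf2 shRNA replicate 1, 3 or 4, while its log2 fold change stayed between 0.38 and 0.46 over the 8 fits with a library left out.

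H2-K1, the classical K heavy chain, spread far more within the treated group than between the groups. Its normalized counts were 771, 373, 464 and 423 in the non-silencing libraries and 679, 732, 171 and 1448 in the Fezf2 shRNA libraries. Replicate 3 of the treated group was the lowest of the 8 and replicate 4 the highest, 8.46 times apart, and the other 6 libraries lay between them. The log2 fold change was 0.58 ± 0.47 with all libraries, 0.92 ± 0.30 without Fezf2 shRNA replicate 3, 0.05 ± 0.42 without replicate 4 and 0.47 ± 0.26 without both.

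H2-D1, the classical D heavy chain, had 510, 436, 446 and 406 normalized counts over its widest interval in the non-silencing libraries and 536, 432, 234 and 2078 in the Fezf2 shRNA libraries. Fezf2 shRNA replicate 4 held 8.88 times the count of replicate 3, whereas the controls lay within 1.26 times of each other. Over the 869-base interval the same libraries had 35.4, 24.8, 31.5 and 25.3, and 25.2, 24.1, 6.97 and 333. The log2 fold change of the widest interval was 0.86 ± 0.52, with 1.17 ± 0.44 without Fezf2 shRNA replicate 3 and -0.16 ± 0.23 without replicate 4.

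H2-Q7, the Qa-2 heavy chain, had the library order of H2-K1 with lower counts. It had 113, 45.4, 64.9 and 61.3 normalized counts in the controls and 75.7, 95.5, 25.9 and 376 in the treated libraries. The top and bottom treated libraries were 14.5 times apart, against 2.49 times for the controls. The log2 fold change of 1.00 ± 0.63 became 1.35 ± 0.52 without Fezf2 shRNA replicate 3 and -0.11 ± 0.43 without replicate 4.

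H2-T23, the Qa-1 heavy chain, varied less. Its normalized counts were 761, 744, 806 and 776 in the controls, within 1.08 times of each other, and 894, 830, 658 and 1110 in the treated libraries. The groups overlapped through replicate 3, the lowest of the 8 libraries, and replicate 4 was again the highest. The log2 fold change was 0.18 ± 0.14, with 0.30 ± 0.11 without Fezf2 shRNA replicate 3 and 0.04 ± 0.11 without replicate 4. The interval of the antisense gene that spans it, A930015D03Rik, had 3163 counts in Fezf2 shRNA replicate 4 and 1650 to 1953 in the others. That interval also holds H2-T24, another heavy chain that was highest in the same library. Reads of H2-T23 and H2-T24 can be part of its count, so it is not a measure of the antisense transcript alone.

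B2m, the light chain that every class I molecule needs, had 3971, 2352, 3096 and 3061 normalized counts in the controls and 3846, 4084, 1421 and 5776 in the treated libraries. Fezf2 shRNA replicates 3 and 4 were again the lowest and the highest, 4.06 times apart. Its log2 fold change of 0.28 ± 0.32 went to -0.001 ± 0.31 without replicate 4 and to 0.56 ± 0.18 without replicate 3. Its lowest and highest libraries were those of H2-K1, H2-D1 and H2-Q7.

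**Figure D1:**
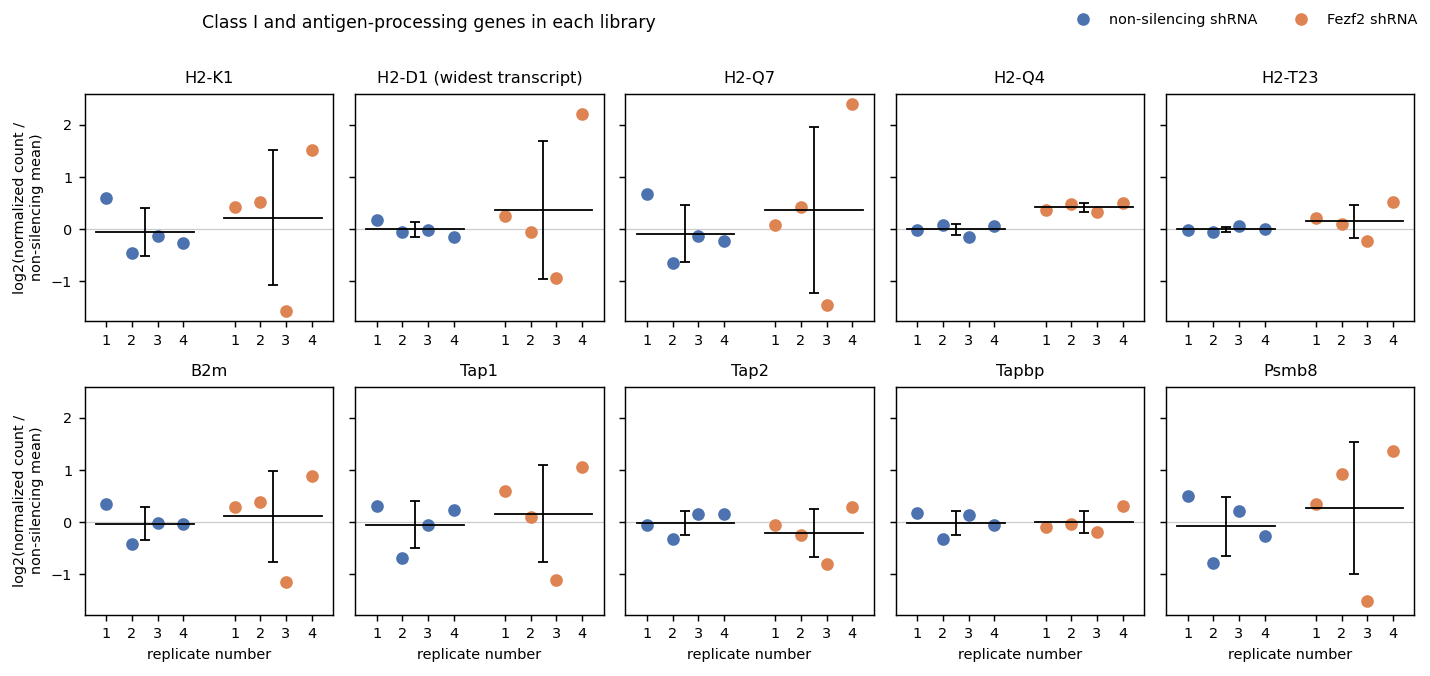
Normalized counts of the 10 genes in each library, as log2 of the ratio to the mean of the 4 non-silencing shRNA libraries (y axis), by replicate number (x axis), with H2-D1 over its widest interval. Points are libraries, horizontal lines the mean of the log2 ratios and bars their SD (n = 4). Fezf2 shRNA replicate 4 is the highest of the 8 libraries for all 10 genes and replicate 3 the lowest for 8, while for H2-Q4 the 4 treated libraries sit together above the controls.

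Of the genes of the peptide supply, Psmb8 and Tap1 had the library extremes of H2-K1. Psmb8, which replaces a catalytic subunit of the proteasome when interferon acts on a cell, had 121, 49.6, 99.3 and 71.0 normalized counts in the controls and 108, 161, 29.9 and 220 in the treated libraries. Tap1, the first transporter subunit, had 148, 74.3, 115 and 140 in the controls and 180, 128, 55.7 and 248 in the treated libraries. Fezf2 shRNA replicates 3 and 4 were the lowest and the highest of the 8 for both, and the groups overlapped. The log2 fold change of Psmb8 was 0.60 ± 0.47, with 0.93 ± 0.32 without Fezf2 shRNA replicate 3 and 0.23 ± 0.48 without replicate 4. For Tap1 it was 0.36 ± 0.38, with 0.63 ± 0.28 and 0.03 ± 0.36 without those libraries. Tap2, the partner of Tap1, differed least among the transporter genes, with 184, 154, 212 and 214 in the controls and 184, 161, 110 and 233 in the treated libraries, and a log2 fold change of -0.15 ± 0.22, which was 0.0078 ± 0.19 without Fezf2 shRNA replicate 3 and -0.33 ± 0.21 without replicate 4. Tapbp, the tapasin gene, had 888, 630, 862 and 762 in the controls and 738, 770, 694 and 968 in the treated libraries. Its lowest library was a control, non-silencing replicate 2, and its log2 fold change was 0.01 ± 0.13, with 0.08 ± 0.14 and -0.10 ± 0.12 without Fezf2 shRNA replicates 3 and 4 in turn.

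**Figure D2:**
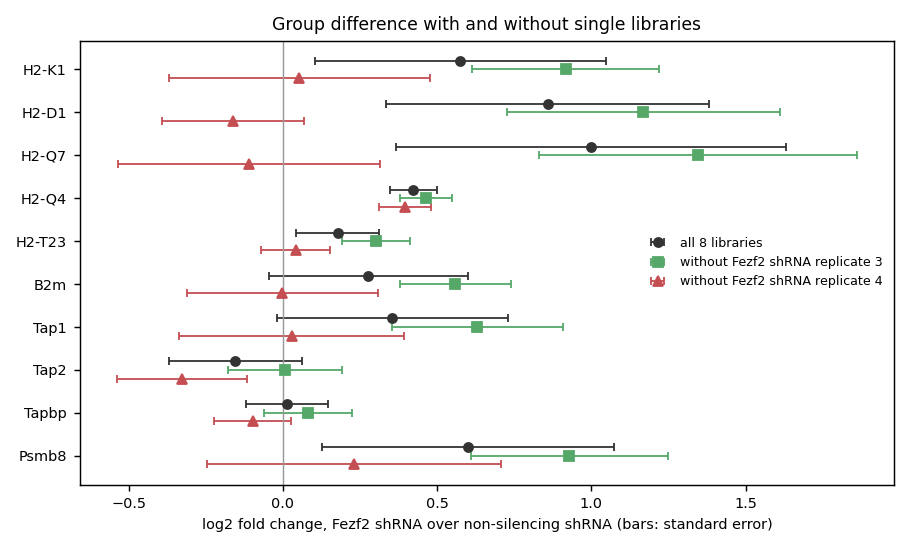
Log2 fold change of Fezf2 shRNA over non-silencing shRNA for each gene (x axis, bars are the standard error of the fit), with all 8 libraries, without Fezf2 shRNA replicate 3 and without Fezf2 shRNA replicate 4. H2-Q4 stays near 0.42 in all 3 fits, whereas H2-Q7 goes from 1.00 to -0.11 and H2-D1 from 0.86 to -0.16 when replicate 4 is left out.

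Across the list, Fezf2 shRNA replicate 4 was the highest of the 8 libraries for 10 of 10 genes and replicate 3 the lowest for 8 of 10, with H2-Q4 and Tapbp as the exceptions for replicate 3. Both held for 7 of the 9 genes with more than 1 CPM, against 1.54% of all 16481 such genes. Alone, replicate 4 was the highest for 13.5% of genes and replicate 3 the lowest for 15.0%. These 2 libraries were singled out in these same class I genes, and the heavy chains can share reads. The shares are thus a description and not a test. The SD of log2 CPM within treatments was 0.96 for H2-K1, above 99.8% of genes tested, and 0.65 for B2m, above 99.2%. For H2-T23 (0.22) and Tapbp (0.22) it was above 89.9% and 89.0%, and for H2-Q4 (0.10) above 30.9%, with a median of 0.12 over genes tested. Among the genes with more than 1 CPM, H2-Q7 (1.16), Psmb8 (0.95), Tap1 (0.71) and Tap2 (0.35) were above 99.3%, 99.0%, 98.2% and 89.4%. H2-Q4 was thus the least variable of the 10 between libraries of 1 treatment, and H2-K1 was among the most variable genes tested.

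Relations with H2-K1 over the 8 libraries were computed on log2 CPM for 14 genes or marker sums, with two-sided exact permutation tests and Benjamini-Hochberg adjustment over the 14. For B2m, Pearson's r was 0.987 (exact permutation p = 7.44e-05, adjusted 0.000521) and Spearman's rho 0.976 (exact p = 0.000397, adjusted 0.00139). For Psmb8, r was 0.964 (exact p = 7.44e-05, adjusted 0.000521) and rho 0.976 (exact p = 0.000397, adjusted 0.00139). For H2-Q7, r was 0.954 (exact p = 0.000943, adjusted 0.00264) and rho 1.00 (exact p = 4.96e-05, the smallest that 8 libraries allow, adjusted 0.000694). These genes followed H2-K1 from library to library. Reads shared between H2-Q7 and other heavy chains can be part of its relation, and this was not tested. Without Fezf2 shRNA replicates 3 and 4, the 2 libraries farthest from the median of H2-K1, r was 0.955 for B2m, 0.895 for Psmb8 and 0.944 for H2-Q7. For H2-Q4, r was 0.316 (exact p = 0.460, adjusted 0.536) and rho 0.333 (exact p = 0.428, adjusted 0.499), and r was 0.497 without those libraries. For Tap2, r was 0.745 (exact p = 0.0400, adjusted 0.0520) and rho 0.595 (exact p = 0.132, adjusted 0.168), and r was -0.155 without them, so that this relation rests on 2 libraries. The remaining class I genes also had a lower r without them. It went from 0.923 to 0.693 for Tap1 and from 0.885 to 0.498 for H2-T23. For H2-D1 over its widest interval it went from 0.866 to 0.648, and for Tapbp from 0.726 to 0.527. These relations thus lean in part on the same 2 libraries. The permutations exchange libraries of both treatments, so a treatment difference can be part of each relation. With 4 libraries a treatment, no relation was computed within treatments, and no batch is given in the labels.

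**Figure D3:**
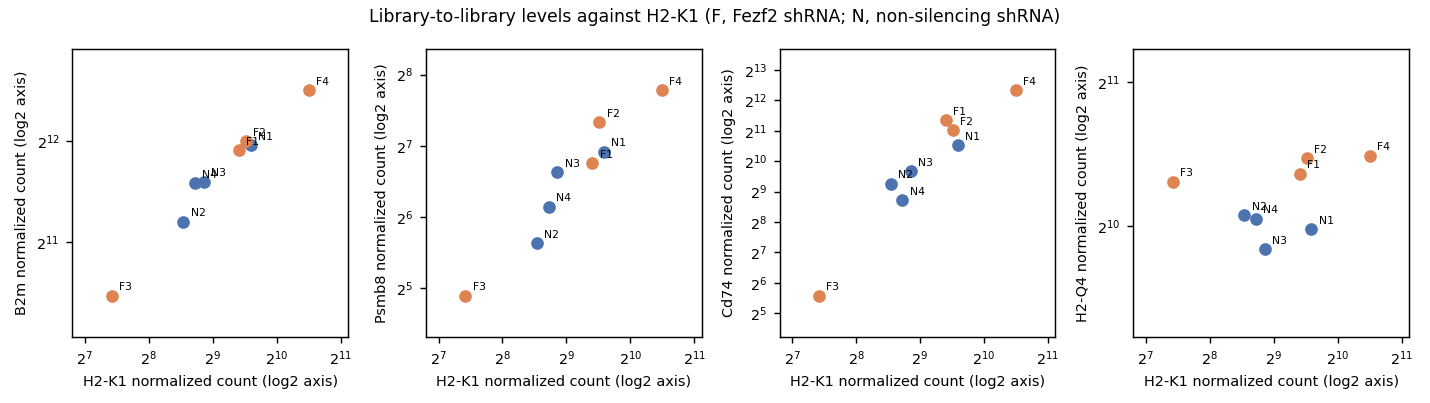
Normalized counts of B2m, Psmb8, Cd74 and H2-Q4 (y axes, log2) against H2-K1 (x axes, log2) in the 8 libraries, where F marks Fezf2 shRNA and N non-silencing shRNA with the replicate number. B2m, Psmb8 and Cd74 climb with H2-K1 from F3 to F4, and H2-Q4 divides the libraries by treatment instead.

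The MHC class II genes present peptides taken up from outside the cell, and Cd74 and H2-Ab1 among them were also spread widely over the treated libraries. Cd74, the invariant chain, had 1468, 615, 814 and 419 normalized counts in the controls and 2599, 2064, 47.8 and 5144 in the treated libraries. Fezf2 shRNA replicate 3 was thus under every control and the other 3 treated libraries were over every control. Its log2 fold change was 1.57 ± 0.82, with an adjusted p of 0.305 (edgeR). H2-Ab1, a class II beta chain, had 190, 35.1, 73.8 and 45.7 in the controls and 285, 304, 5.97 and 524 in the treated libraries. Of the 9 class II genes, replicate 4 was the highest library for 7 and replicate 3 the lowest for 8. By the filter, 2 were tested and 0 were past the threshold, with 0 also at an unadjusted p under 0.05 and 0 in DESeq2. The relation of Cd74 with H2-K1 had an r of 0.963 (exact permutation p = 0.000496, adjusted 0.00174) and a rho of 0.881 (exact p = 0.00724, adjusted 0.0203), with an r of 0.881 without Fezf2 shRNA replicates 3 and 4.

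Other genes of the class I pathway gave 1 call. Of 76 genes on 5 further lists, 33 were tested, 1 was past the threshold as higher and 0 as lower, with a median log2 fold change of -0.02. Of all genes tested, 2.09% were past the threshold, so 1 call among 33 is not read as a trait of the lists. The gene was Irf2, an interferon regulatory factor, with 1684, 1940, 1761 and 1726 normalized counts in the controls and 2324, 2469, 2724 and 2215 in the treated libraries, a log2 fold change of 0.45 ± 0.08 (edgeR adjusted p = 0.0276). Every treated library lay above every control. Irf2 spans 107727 bases, and with the gene length offset 2 genes of the whole table were past the threshold and Irf2 was not among them. Of the 16 tested genes of peptide loading and trimming, 0 were past it, and the smallest p values were those of Sec24a, a coat protein of export vesicles (0.34 ± 0.09, edgeR adjusted p = 0.0717), Hspa5 (-0.19 ± 0.07, 0.185) and Canx (-0.18 ± 0.08, 0.229), the latter both chaperones of the endoplasmic reticulum. Of these 16, 3 had an unadjusted p under 0.05 (edgeR), 1 higher and 2 lower, beside 1947 of all 9959 genes tested. Sec24a was past the threshold in DESeq2, which called 7.55% of all genes tested. The immunoproteasome list gave 0 calls among 2 tested, Pomp (-0.11 ± 0.07) and Psmb10 (-0.05 ± 0.10), with 0 at an unadjusted p under 0.05 (edgeR) and 0 in DESeq2. Of the other heavy chains, only H2-T24 passed the filter, at 0.42 ± 0.20 (edgeR adjusted p = 0.270), and its highest library was also Fezf2 shRNA replicate 4, with 1225 against 549 to 772 normalized counts. Of the 9 receptors for class I molecules, 0 passed the filter and 7 stayed under 1 CPM in every library.

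Irf1 and Nlrc5, regulators of class I transcription, were also highest in Fezf2 shRNA replicate 4. Irf1, an early interferon regulatory factor, had 180, 128, 181 and 177 normalized counts in the controls and 193, 201, 108 and 332 in the treated libraries. Nlrc5, the transactivator of class I genes, had 74.8, 22.7, 56.1 and 57.4 in the controls and 137, 101, 31.9 and 150 in the treated libraries. Irf1 was lowest in Fezf2 shRNA replicate 3 and Nlrc5 in non-silencing replicate 2. Of the 25 interferon-stimulated genes, replicate 4 was the highest library for 17 and replicate 3 the lowest for 11. A single gene of that list was tested, Lgals3bp, a secreted binding protein (0.59 ± 0.21, edgeR adjusted p = 0.158), and it was past the threshold in DESeq2 and not in edgeR.

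The genes whose levels over the 8 libraries were most like those of each of 3 class I genes were taken among the 9959 tested, by Pearson's r of log2 CPM. For H2-K1 they were Patl2 (0.987), Cd74 (0.963), Olfr56 (0.956), C1qc (0.945) and Inpp5d (0.939). For B2m they were Patl2 (1.00), Olfr56 (0.967), Cd74 (0.960), Gbp9 (0.938) and C1qc (0.923). The counted interval of Patl2 holds that of B2m, and nearly all its reads lay there (mean counts of 3509 and 3446). Its high r with B2m is thus that of the same reads. The interval of Olfr56, an olfactory receptor gene, holds the interferon-inducible GTPase genes Tgtp1, Tgtp2 and Ifi47, so that name does not say which gene the reads come from. For H2-Q4 they were Sorbs2os (0.978), Cdk13 (0.967), Magi3 (0.962), Grm3 (0.959) and Boc (0.957). None of the 5 for H2-Q4 was among those for H2-K1 or B2m. The treatment contrast chose H2-Q4, so genes most like it over both treatments are likely to share that difference. Nothing is therefore read from the separate sets. In each of the 5 genes nearest to H2-Q4, every treated library lay above every control. Of those 5, Sorbs2os (log2 fold change 0.40 ± 0.07) and Grm3 (0.29 ± 0.06) were past the threshold, and all 5 are long genes, spanning 73849 to 239630 bases against 5058 for H2-Q4.

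The summed markers of microglia followed H2-K1 over the libraries, and the sum was not set against the other class I genes. The 14 markers reported here summed to 10470 to 13655 in the controls and 9355 to 14023 in the treated libraries. Fezf2 shRNA replicate 3 was the lowest of the 8 libraries and replicate 4 the highest, so that the sum followed H2-K1 with an r of 0.945 (exact permutation p = 0.000322, adjusted 0.00151) and a rho of 0.976 (exact p = 0.000397, adjusted 0.00139), and with an r of 0.892 without those 2 libraries. The sum ranged less than H2-K1 did. Marker by marker, Fezf2 shRNA replicate 4 was the highest library for 5 of the 14 and replicate 3 the lowest for 11. Of all genes with more than 1 CPM, 13.5% and 15.0% had these traits. The part of microglia in the class I counts was not tested. In bulk tissue, fewer cells of a type and less RNA per cell cannot be told apart. Markers of endothelial cells (r = 0.0896, exact permutation p = 0.788, adjusted 0.849, rho = 0.214, exact p = 0.619, adjusted 0.667) summed to 4749 to 6140 in the controls and 4770 to 5086 in the treated libraries. Markers of meningeal and perivascular fibroblasts (r = -0.0173, exact permutation p = 0.970, adjusted 0.970, rho = 0.0952, exact p = 0.840, adjusted 0.840) summed to 2327 to 3746 and 2222 to 4427. Without the 2 libraries, r was -0.117 for endothelial cells and 0.449 for fibroblasts. Oligodendrocyte markers had summed normalized counts of 64034 to 116292 in the controls and 47564 to 78031 in the treated libraries. Of these 8 genes, 0 had a log2 fold change above 0, and the median was -0.53. An unadjusted p under 0.05 (edgeR) was found for 5, beside 1947 of all 9959 genes tested. Past the threshold were 0 in edgeR and 2 in DESeq2, which called 7.55% of all genes tested. The 9 astrocyte markers summed to 66031 to 75041 and 66509 to 71923. The part of these cell types in the class I counts was not tested. The 17 lymphocyte markers summed to 729 to 1035 in the controls and 382 to 761 in the treated libraries, and the log2 fold change of the only one tested, Ighm, an antibody heavy chain, was -1.14 ± 0.27 (edgeR adjusted p = 0.0592).

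Where reads lay along a gene also differed between libraries. In Fezf2 shRNA replicate 4, 16.0% of the H2-D1 count fell in the 869-base interval, which holds exons 5 to 7 with the end of exon 4 and the start of exon 8 (95% Wilson interval 14.5% to 17.7%), against 2.98% to 7.06% in the other 7 libraries. For H2-T23, a 968-base interval held 29.1% in that library (26.5% to 31.8%) and 10.3% to 19.0% in the others. For H2-Q7, a 1582-base interval held 42.9% (37.9% to 47.9%), and 58.7% to 88.4% in the others. For another H2-D1 interval, of 843 bases, that library lay within the range of the others (25.9% against 19.0% to 48.6%). For 3 such intervals of H2-K1, it also lay within the range of the others, as with 18.6% against 16.1% to 28.2% for the longest. The intervals cover counting error only, and both mates of a read pair can be in a count. The 3 intervals given first were chosen after their values were seen. Of all 16 such intervals, in 7 of the genes, Fezf2 shRNA replicate 4 lay outside the range of the others in 5, one each of H2-D1, H2-T23, H2-Q7, Tap2 and Tapbp. Its Wilson interval lay outside that range in the 3 heavy chain intervals given first. The other libraries lay outside in 1 to 7 intervals, and with their Wilson interval in 0 to 2. The part of the animals' alleles, or of reads shared between genes, was not tested.

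**Figure D4:**
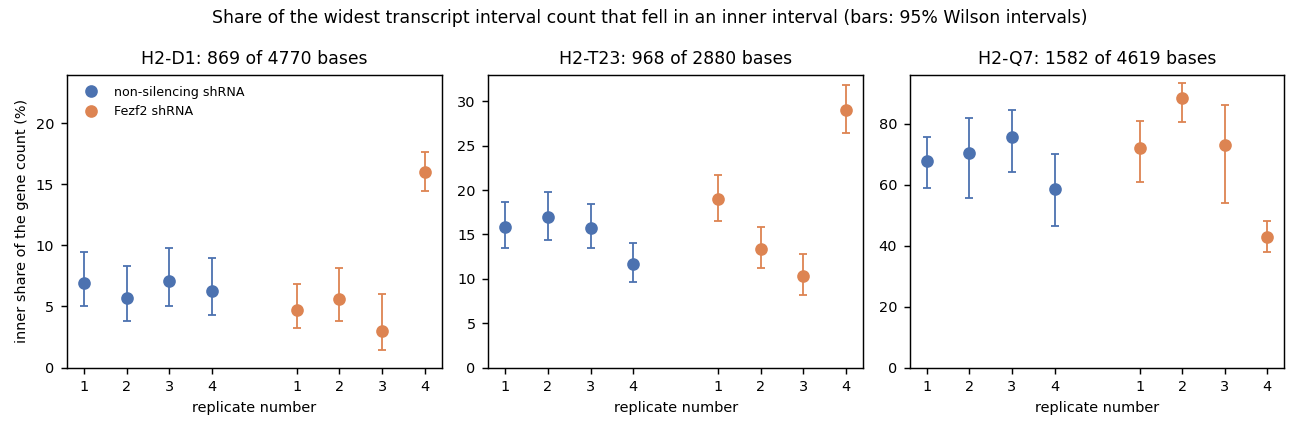
Share of the reads of the widest interval that fell in an inner transcript interval (y axis, percent), for H2-D1, H2-T23 and H2-Q7, in each library by replicate number (x axis), with 95% Wilson intervals as bars. Fezf2 shRNA replicate 4 lies at 16.0%, 29.1% and 42.9%, outside the range of the other 7 libraries in all 3 genes.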

How the data were processed

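Total RNA libraries of M1 tissue were made with an Illumina TruSeq total RNA kit and sequenced as read pairs. Per the labels and the methods of the study, the authors aligned reads to mm10 (GRCm38) with TopHat2 2.1.1 and obtained the deposited counts with bedtools 2.26.0 multiCov, over the genomic interval of each Ensembl transcript. Those counts are whole numbers of alignments, introns included, and are not normalized. A deposited table of the authors' own comparison (DESeq2 1.10.1 fold changes and p values) was not used. Groups came from sample titles.

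Of 94647 transcripts, 91320 were found in GENCODE M21. The other 3327, with 1.82% of counts, were left out, and 1 transcript per gene (lowest Ensembl number) was used, giving 38031 genes. Genes over 8 CPM in 4 or more libraries were tested with edgeR 4.0.16 (TMM, quasi-likelihood, Benjamini-Hochberg over all genes tested) in R 4.3.3, with no covariate. Genes under that filter were fitted at more than 1 CPM, and H2-D1 over its widest transcript. Normalized counts were scaled by the TMM library size to the mean library, and log2 CPM used a prior count of 2. Correlations used exact permutation of the 8 libraries in scipy 1.17.1. Sequences are from the RefSeq promoter table and the GENCODE transcripts.

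The genes, gene lists and tests were chosen with earlier results of these data known. Genes are named by a rule: the 10 class I genes, Fezf2, of each list the genes past the threshold or else the 3 with the smallest p, Nlrc5, Irf1 and the 5 genes most like H2-Q4, H2-K1 and B2m. H2-Ab1, the motifs, the printed promoters and the inner intervals were chosen after their values were seen. Results of a few genes that the rule names are left out, among them 1 marker of the microglia list, and its sum was taken without it.

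Replicate numbers are shared between treatments, but the correlations of deviations between libraries of the same number were 0.307, 0.0931, -0.133 and 0.167, so that the numbers were not taken as pairs. Alternatives were another normalization (median of ratios, library totals), filter (more than 1 CPM, none), transcript (widest) and tool (DESeq2 1.42.0), a replicate block, an offset for gene length (loess, span 0.3), and each library left out. On simulated counts of this contrast with 200 changed genes among 9959, edgeR called 72% of the genes changed by a log2 of 0.5 and 99% of those changed by a log2 of 1. The changed genes were drawn from all genes tested. These shares therefore do not apply to H2-K1 and B2m, which varied far more between libraries, or to genes under the filter. With 54684016 to 58003814 counts a library, replicate spread and not counting error limits all but the least abundant genes.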

Additional observations from a re-analysis of the deposited data

Results flagged for a closer look

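In 86 groups of 4 libraries, a value far from the other 3 was sought by the gap to its neighbour over the range of the group (Dixon's 95% critical value), and 5 values were found where about 1 in 20 groups would give one by chance. Fezf2 shRNA replicate 4 stood apart for H2-D1, with 2078 normalized counts over the widest interval (gap over range 0.836) and 333 over the 869-base interval (0.944), against 234 to 536 and 6.97 to 25.2 in the other 3 treated libraries. Non-silencing replicate 2 was low for Irf1, with 128 normalized counts (0.925). Non-silencing replicate 1 was high for C1qc, a complement gene of microglia, with 835.1 normalized counts (0.836). Fezf2 shRNA replicate 3 was low for Sorbs2os, with 11567 normalized counts (0.834).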

How the results depend on the processing

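The number of genes past the threshold moved from 208 to 84 with more than 1 CPM, 103 without a filter, 752 in DESeq2, 90 with the replicate block, 2 with the gene length offset, 2 with offset and block, 2 without Fezf2 shRNA replicates 3 and 4 (added after the data were seen), and 0 to 368 with 1 library left out. It was 0 without non-silencing replicate 1, 4 without non-silencing replicate 4, and 13, 9 and 17 without Fezf2 shRNA replicates 1, 3 and 4. H2-Q4, the 1 gene of the list past the threshold, went to 0 of the list with the gene length offset (log2 fold change 0.53), with offset and block (0.53), without Fezf2 shRNA replicates 3 and 4 (0.43), and in 5 of 8 fits with a library left out (0.38 to 0.46 over the 8, counts 0 to 1). It kept its call in 10 of 18 alternatives and its direction in all 18. The treatment contrast chose this gene, so these counts describe the processing only. The 1 call among other pathway genes, Irf2, went to 0 in the same settings, with a range of 0 to 1 on leaving out a library, and to 2 genes in DESeq2. DESeq2 gave 1 interferon-stimulated gene against 0, and leaving out a library gave 0 to 1 marker genes against 0 (1 each without Fezf2 shRNA replicates 2 and 3, the latter Ighm). Fezf2 passed the threshold in DESeq2 only (-0.28). Directions turned for H2-Q7 (-0.11), H2-D1 (-0.16), B2m (-0.0013) and Tapbp (-0.098) without Fezf2 shRNA replicate 4, for Tap2 (0.0078) without replicate 3, and for Tapbp with library totals (-0.015), without non-silencing replicate 2 (-0.080) and without Fezf2 shRNA replicates 3 and 4 (-0.059). Over the fits with a library left out, log2 fold changes ran from -0.11 to 1.35 for H2-Q7, -0.16 to 1.17 for H2-D1, -0.0013 to 0.56 for B2m, -0.33 to 0.0078 for Tap2 and -0.098 to 0.081 for Tapbp. The replicate block changed no call of the named class I genes. The causes were not tested. Of 273 alternatives, 222 kept direction and side of the threshold or, for counts, stayed within 1.5 times. Limits are the low counts of H2-Q7, Tap1, Tap2, Psmb8 and the 869-base H2-D1 interval, and reads shared among class I genes.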
